A study of Homo sapiens with 6 samples.

Results

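The loci of 8 genes that act at the step from G1 to S phase of the cell cycle, and of MYC, were examined for methylation of lysine 79 of histone H3 (H3K79). The 9 members, MYC, CCND1, CCNE1, CDK4, CDK6, CDKN1A, CDKN1B, E2F3 and RB1, were chosen by name. A peak belonged to a member when it shared at least 1 bp with the span of that gene on the human genome build hg19. Of the 8899 regions left after overlapping H3K79me2 and H3K79me3 peaks of all libraries were merged, 6 lay on members. All samples came from 293T, a line of human embryonic kidney origin in which the large T antigen of SV40 is expressed. The lines compared were made to express stably either a control hairpin RNA (shCTL) or one directed at KDM2B (shKDM2B). From each came 1 library of chromatin immunoprecipitated for H3K79me2, 1 for H3K79me3 and 1 of input DNA taken without antibody. The sources used here do not say whether a line was a single clone or a pool, and only the labels speak for the knockdown, since KDM2B itself was not measured in these libraries.

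In a dividing cell, growth signals raise MYC and cyclin D (CCND1), which activates the kinases CDK4 and CDK6. These phosphorylate the retinoblastoma protein RB1 and free E2F factors such as E2F3, which switch on cyclin E (CCNE1) and the genes of DNA synthesis, while the inhibitors p21 (CDKN1A) and p27 (CDKN1B) hold the cyclin-dependent kinases back. Large T antigen binds and inactivates RB1 in 293T cells. H3K79 is methylated by DOT1L and the mark is typical of the first part of transcribed genes, just downstream of the start. KDM2B binds CpG-rich promoter DNA through a CXXC zinc finger, and whether it demethylates H3K79 was the question of the study.

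The 250 bases upstream of the annotated start are shown for a member with both marks (CDK4), one with H3K79me2 only (CCNE1) and one with neither (CDK6). They were chosen because KDM2B recognises CG dinucleotides and the called peaks begin near the start of the gene span. The sequences are from RefSeq on GRCh38.p14, 5′ to 3′ on the strand of the gene, and their positions are not interchangeable with the hg19 positions of the peaks. Capitals mark matches on either strand to CACGTG (the E-box that MYC can bind), to TTTCCCGC or TTTGGCGC (E2F-type sites), or to GGGCGG (the GC box).
CDK4, chr12:57752311-57752560, minus strand: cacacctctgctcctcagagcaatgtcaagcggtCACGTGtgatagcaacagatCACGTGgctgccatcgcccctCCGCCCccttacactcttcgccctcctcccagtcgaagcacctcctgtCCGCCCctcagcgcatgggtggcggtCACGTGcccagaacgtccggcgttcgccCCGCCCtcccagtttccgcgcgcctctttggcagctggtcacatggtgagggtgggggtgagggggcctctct
CCNE1, chr19:29811741-29811990, plus strand: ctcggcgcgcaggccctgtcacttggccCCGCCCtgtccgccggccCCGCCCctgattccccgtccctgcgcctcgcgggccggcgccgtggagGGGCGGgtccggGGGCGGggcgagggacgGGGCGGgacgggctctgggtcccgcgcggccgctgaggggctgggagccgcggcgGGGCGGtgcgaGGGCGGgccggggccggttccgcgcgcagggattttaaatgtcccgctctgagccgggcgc
CDK6, chr7:92836574-92836823, minus strand: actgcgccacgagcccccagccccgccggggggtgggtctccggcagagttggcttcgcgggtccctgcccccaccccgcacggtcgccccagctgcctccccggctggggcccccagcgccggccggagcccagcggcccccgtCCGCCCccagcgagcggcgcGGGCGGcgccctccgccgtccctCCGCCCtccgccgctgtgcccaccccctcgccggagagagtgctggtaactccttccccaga

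The CDK4 window held 3 copies of CACGTG, starting 216, 196 and 101 bases before the RefSeq start, and 3 GC boxes. That start may differ from the hg19 start from which the peaks were measured, since the 2 CDK4 spans differ in length (4584 and 4721 bp). The E-box letters occurred in 6.34% of the 35116 promoter windows of the same length in the table. CCNE1 held 7 GC boxes and 39 CG dinucleotides, the CDK6 start shown held 3 GC boxes and 30 CG dinucleotides, and CDK4 held 19 CG dinucleotides, against a median of 11 over all windows. GGGCGG occurred in 42.6% of all windows. None of these 3 windows held either E2F-type sequence, which 1.93% of all windows did. A second CDK6 start in the table had 23 CG dinucleotides and 0 GC boxes. Of the other members, CDKN1B had 27 CG dinucleotides, CDKN1A 27, the first of the 2 E2F3 starts 18 with 1 copy of TTTCCCGC, and the second E2F3 start 27 with 1 E-box. CG-rich windows were thus found at members with peaks and at members without. MYC and CCND1 had no entry in the table, and the RB1 entry lay at a start inside the gene and was not used.

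H3K79 methylation was called at 6 of the 9 loci, and the same 6 were called in both lines. The share of all genes with a peak was not counted, since no hg19 annotation was used, so 6 of 9 cannot be called high or low. H3K79me2 peaks lay on MYC, CCND1, CCNE1, CDK4, CDKN1B and RB1 in shCTL and in shKDM2B. H3K79me3 peaks lay on the same genes except CCNE1, again in both lines. No library had a peak on CDK6, CDKN1A or E2F3. Neither input library had a peak on any of the 9 loci. The input lists held only 927 and 860 peaks in all, with median widths of 216 and 227 bp, so this absence says little about background there. Each occupied locus carried a single peak in each library, so that the members contributed 22 ChIP peaks. All 6 H3K79me2 regions and all 5 H3K79me3 regions of the members were called in both lines, against 72.6% and 67.9% of all regions. Of all H3K79me2 regions 10.1% were called in shKDM2B only and 17.3% in shCTL only, and for H3K79me3 these shares were 25.6% and 6.5%. The 5 loci with both marks in both lines shared this pattern with 44.1% of the 8899 regions, and CCNE1, with H3K79me2 in both lines and no H3K79me3, shared its pattern with 5.6%. An uncalled locus may still carry signal below the calling threshold, and no level was assigned to it.

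The libraries held 11912494 to 17044011 tags once duplicates were removed, and each line and mark was represented by 1 library. The differences below are therefore differences between libraries, with no replicate check and no p-value. Intervals are exact 95% Poisson intervals that cover counting error only. A difference in a level can reflect how many cells carry the mark or how much of it each carries, which cannot be told apart here. It can also reflect how well each immunoprecipitation worked, which was not tested. The filtered tags for H3K79me2 were 16018517 in shCTL and 13144744 in shKDM2B, and for H3K79me3 17044011 and 16389356. Called peaks held 13.0% of them in shCTL and 10.8% in shKDM2B for H3K79me2, and 9.76% and 14.3% for H3K79me3. The fragment length estimated by the peak caller was 148 bp for shCTL and 210 bp for shKDM2B H3K79me2, and 180 and 126 bp for H3K79me3. Its part in the called widths was not tested.

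**Figure D1:**
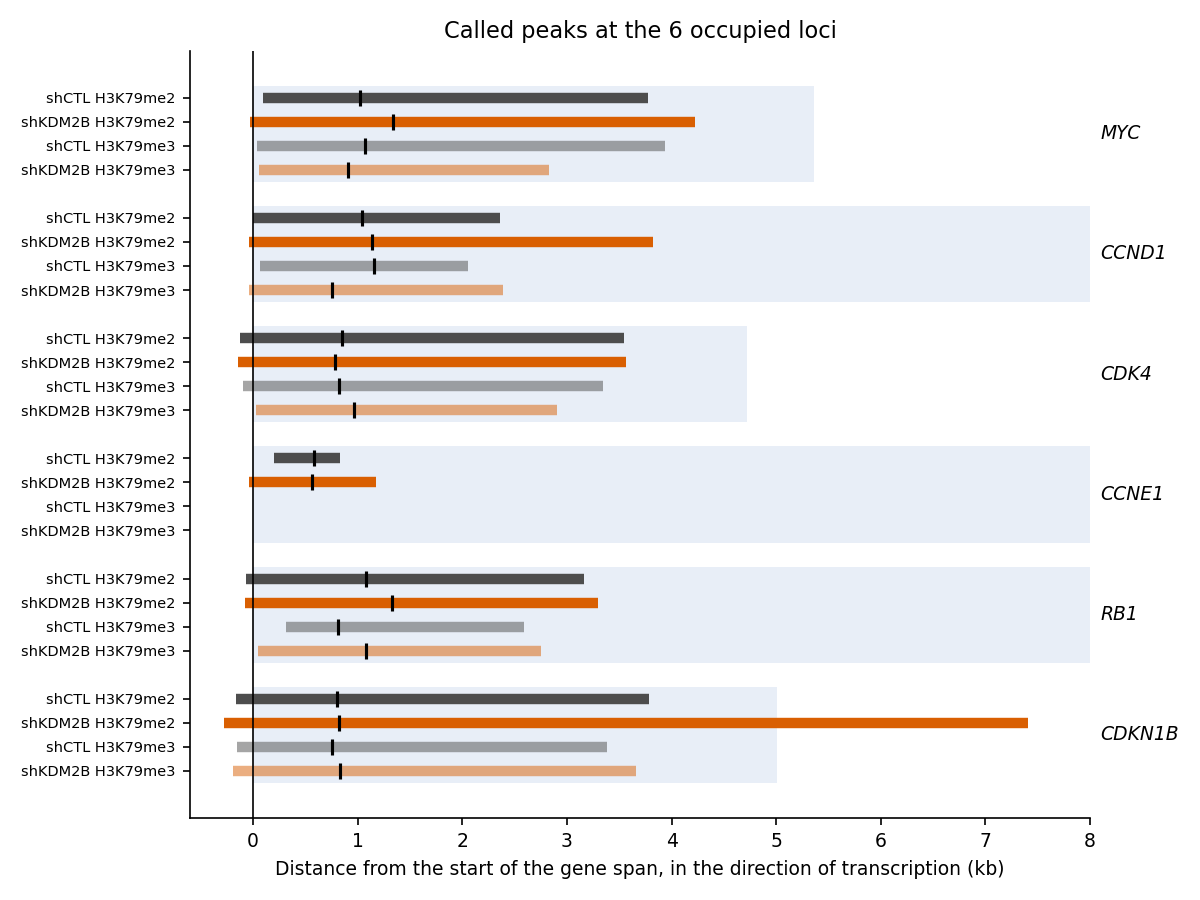
Extent of each called peak at the 6 occupied loci, as distance in kb from the start of the gene span in the direction of transcription, with the black tick at the summit and the shaded area showing the gene span up to 8 kb. Control peaks are grey, knockdown peaks orange, and H3K79me3 is drawn paler than H3K79me2; the knockdown H3K79me2 peak at CDKN1B reaches 7408 bp past the start, beyond all others.

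The marks occupied the 5′ ends of these genes. Over the 22 peaks the summit lay 559 to 1342 bp downstream of the start, with a median of 877 bp. The upstream edges lay between 282 bp before and 314 bp after the start, and 13 of the 22 peaks began upstream of it. On the short genes the peaks covered much of the span, from 51.7% to 78.7% at MYC and from 61.0% to 75.5% at CDK4. The spans used were 5366 bp at MYC and 4721 bp at CDK4, against 7518 and 4584 bp in RefSeq on GRCh38. These shares, and distances from the start, therefore depend on the annotation, and the MYC share would be smaller over the longer span. RB1 is 178144 bp long in this annotation and its peaks covered 1.28% to 1.85% of it, all within the first 3300 bp. At CCND1 the peaks ended 2051 to 3827 bp after the start of a 13370 bp span. The plot of peak extents shows that summit position varied little between genes although their lengths differed widely. In GRCh38.p14, TSPAN31 overlaps the 3′ part of CDK4, and GPR19 and RB1-DT lie close to the starts of CDKN1B and RB1, so tags at those loci cannot be credited to 1 gene alone.

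**Figure D2:**
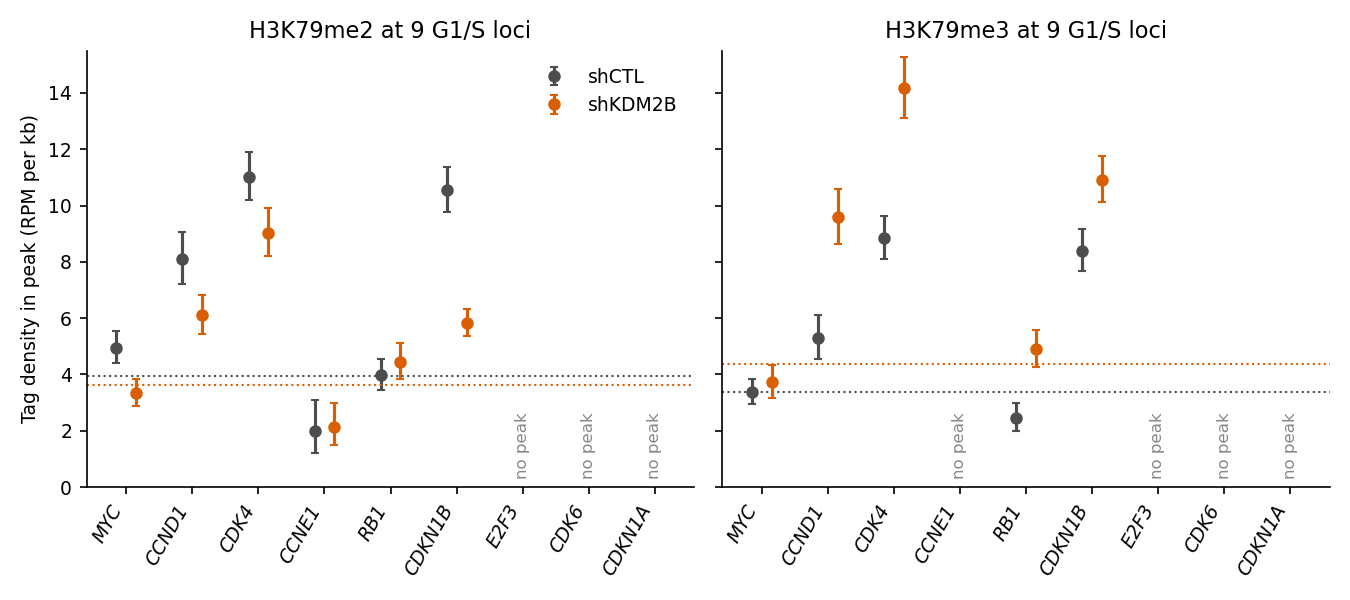
Tag density in the called peak (RPM per kb) of each locus in the control (grey) and knockdown (orange) library, for H3K79me2 on the left and H3K79me3 on the right, with exact 95% Poisson intervals and the median of all peaks of each list as a dotted line. CDK4 is the highest of the members in each of the 4 lists, CCNE1 has H3K79me2 only, and E2F3, CDK6 and CDKN1A have no peak.

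Levels are given as tags per 1000000 filtered tags (RPM) and as RPM per kb of called peak, the latter being used to compare genes. Of the members, CDK4 had the highest density of both marks in both lines. This rank depended on the called width. By RPM, CDKN1B was above CDK4 for H3K79me2 in shCTL (41.7 against 40.5) and in shKDM2B (44.8 against 33.5). For H3K79me3 it was above CDK4 in shKDM2B (42.1 against 40.8) but not in shCTL (29.7 against 30.5). In shCTL, H3K79me2 stood at 11.0 RPM per kb at CDK4, 10.6 at CDKN1B, 8.11 at CCND1, 4.96 at MYC, 3.98 at RB1 and 1.998 at CCNE1. The intervals of CDK4 and CDKN1B overlapped, as did those of MYC and RB1 and those of no other neighbours in this order. In shKDM2B the H3K79me2 order was CDK4 (9.04), CCND1 (6.10), CDKN1B (5.83), RB1 (4.44), MYC (3.33) and CCNE1 (2.13), with overlap between CCND1 and CDKN1B and between MYC and CCNE1. For H3K79me3 the shCTL order was CDK4 (8.85), CDKN1B (8.40), CCND1 (5.29), MYC (3.37) and RB1 (2.44), with overlap between CDK4 and CDKN1B and between MYC and RB1. The shKDM2B order was CDK4 (14.2), CDKN1B (10.9), CCND1 (9.59), RB1 (4.89) and MYC (3.72), with overlap between CDKN1B and CCND1 and between RB1 and MYC. Of the 22 peaks, 16 were denser than the median peak of their own list.

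Between the lines, H3K79me3 density was higher in shKDM2B at all 5 occupied loci, and H3K79me2 density was lower at 4 of 6. Over all shared regions 96.9% were higher in shKDM2B for H3K79me3 and 71.4% lower for H3K79me2, so these counts follow the lists as a whole. The difference exceeded 1.96 counting SE at 4 of 5 loci for H3K79me3, all but MYC, against 80.8% of all shared regions. For H3K79me2 it did so in the downward direction at 4 of 6, against 30.6%, and these were MYC, CCND1, CDK4 and CDKN1B. More tags make this limit easier to pass, and these 4 peaks held 292 to 668 tags in shCTL, against a list median of 176. The median log2 ratio of density, shKDM2B over shCTL, was 0.68 at the members for H3K79me3, against 0.55 over 5087 shared regions. For H3K79me2 it was -0.35 at the members, against -0.15 over 5432 shared regions. At least 1.5-fold higher H3K79me3 density was found at 3 of the 5 loci, CCND1, CDK4 and RB1, against 44.9% of all shared regions. At least 1.5-fold lower H3K79me2 density was found at 1 of 6, CDKN1B, against 4.42% of all shared regions, and 0 of 6 were 1.5-fold higher, against 0.847%. By summed RPM, which follows the called width, H3K79me3 was higher at 4 of 5 loci, against 92.9% of all shared regions, with a median log2 ratio of 0.50 against 0.60 over all shared regions. H3K79me2 was then higher at 4 of 6, against 50% of all shared regions, with a median of 0.16 against 0.00, so that the direction of the H3K79me2 median depended on the quantity. The summed RPM was at least 1.5-fold higher at 2 of 5 loci for H3K79me3, CCND1 and RB1, against 51.7%, and at 1 of 6 for H3K79me2, CCNE1, against 17.2%. The ratios per kb and by summed RPM had opposite signs at 2 of 6 H3K79me2 loci, CCND1 and CDKN1B, against 31.2% of shared regions. The knockdown H3K79me2 peak was the wider one at all 6 loci, as at 72.7% of shared regions. When tags were scaled to those inside the peaks of each list, the median at the members was 0.13 for H3K79me3 and -0.07 for H3K79me2, and that over all shared regions -0.01 and 0.12. On this scale H3K79me3 density was higher in shKDM2B at 3 of 5 loci, with CDKN1B at -0.17 and MYC at -0.41. H3K79me2 density was lower at the same 4 of 6, beyond 1.96 counting SE at MYC (-0.30) and CDKN1B (-0.58) but not at CCND1 (-0.13) or CDK4 (-0.01). The shares of all shared regions were not counted on this scale. Their medians put at most 50% of them above 0 for H3K79me3 and at most 50% below 0 for H3K79me2.

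**Figure D3:**
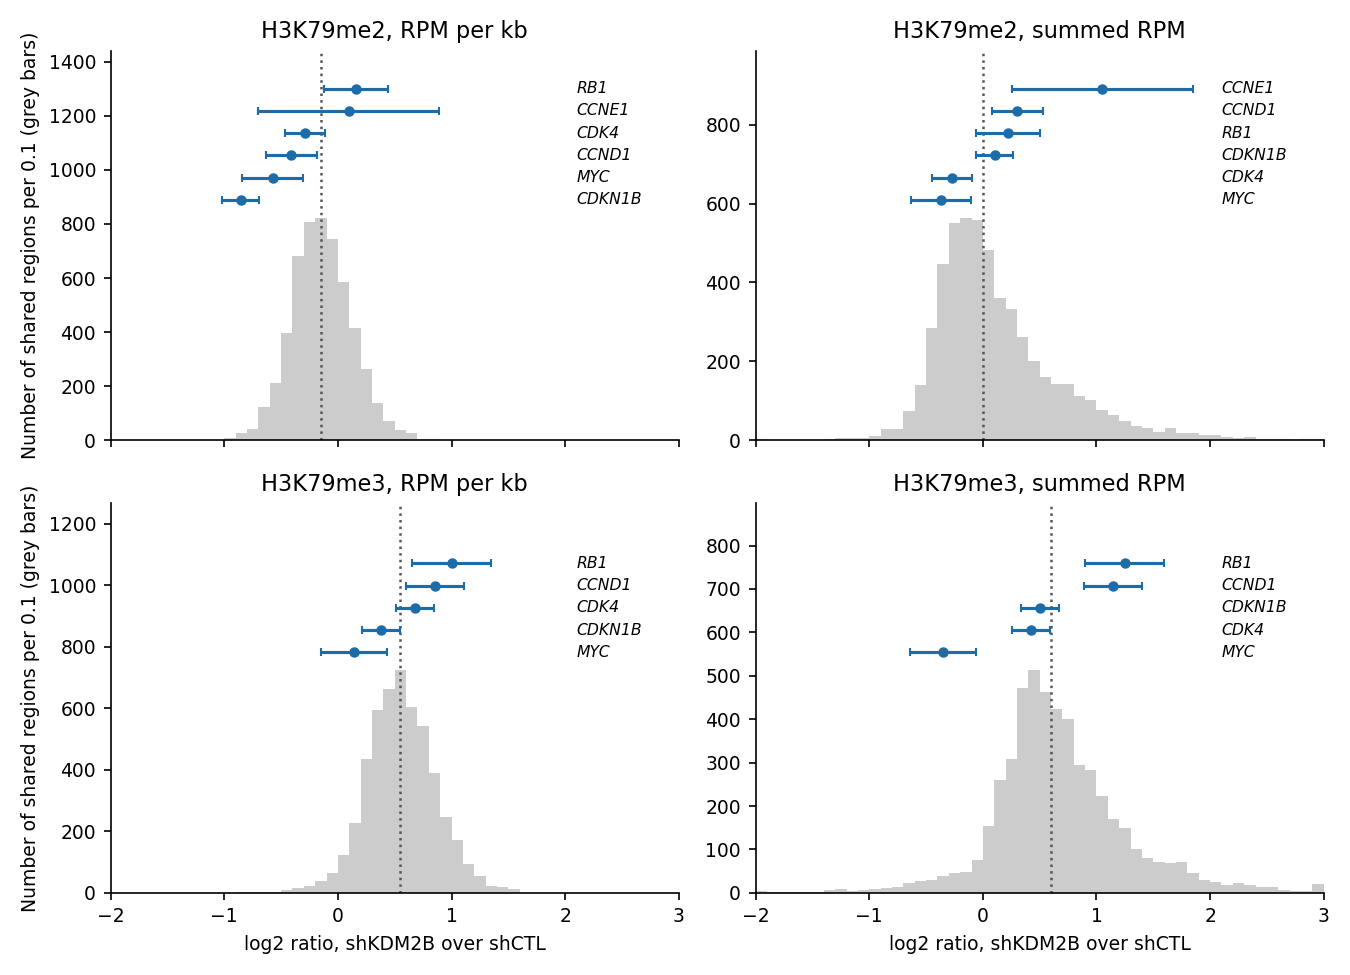
Log2 ratio of shKDM2B over shCTL for each mark, by density (RPM per kb, left) and by summed RPM (right). Grey bars count all shared regions in steps of 0.1, with values beyond the axis placed in the last bar, the dotted line is their median, and blue points are the members with 1.96 counting SE; the height of a point has no meaning. MYC lies left of the dotted line in all 4 panels, and RB1 lies right of it in all 4.

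MYC, at chr8:128748315-128753680 on the plus strand, encodes the transcription factor that drives growth and proliferation genes. Its H3K79me2 peak held 292 tags in 3678 bp in shCTL, 18.2 RPM (95% interval 16.2 to 20.4), and 186 tags in 4254 bp in shKDM2B, 14.2 RPM (95% interval 12.2 to 16.3). The knockdown library was thus lower by tags although its peak was wider. The log2 ratio was -0.58 per kb (counting SE 0.14) and -0.37 by summed RPM, at percentiles 4.58 and 13.7 of all shared H3K79me2 regions. The H3K79me3 peak held 224 tags in 3902 bp in shCTL and 169 tags in 2775 bp in shKDM2B, or 13.1 and 10.3 RPM. Its log2 ratio was 0.14 per kb (counting SE 0.15) and -0.35 by summed RPM, at percentiles 7.49 and 3.44 of all shared H3K79me3 regions. MYC was the member with the lowest H3K79me3 ratio by either quantity, and the only one whose summed H3K79me3 was lower in shKDM2B, as in 7.1% of all shared regions. The direction per kb lay within counting error.

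Cyclin D1, encoded by CCND1 at chr11:69455873-69469242 on the plus strand, partners CDK4 and CDK6. Its H3K79me3 peak held 179 tags in 1984 bp in shCTL and 381 tags in 2424 bp in shKDM2B, or 10.5 RPM (95% interval 9.02 to 12.2) and 23.2 RPM (95% interval 21.0 to 25.7). The log2 ratio was 0.86 per kb (counting SE 0.13) and 1.15 by summed RPM, at percentiles 84.9 and 83.3. H3K79me2 was similar in tags, with 306 in 2356 bp and 310 in 3863 bp, or 19.1 and 23.6 RPM. Its log2 ratio was -0.41 per kb (counting SE 0.12) and 0.30 by summed RPM, and the knockdown peak was 1.64 times as wide.

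CDK4, a kinase that cyclin D activates, lies at chr12:58141510-58146230 on the minus strand and carried the densest peaks of the members. Its H3K79me2 peak was nearly equal in width, 3668 bp in shCTL and 3713 bp in shKDM2B, and held 648 and 441 tags, or 40.5 RPM (95% interval 37.4 to 43.7) and 33.5 RPM (95% interval 30.5 to 36.8). The knockdown library was lower by either quantity, with log2 ratios of -0.29 per kb (counting SE 0.09) and -0.27 by summed RPM, at percentiles 29.3 and 22.4 of all shared H3K79me2 regions. H3K79me3 went the other way, from 519 tags in 3441 bp to 669 tags in 2879 bp, or 30.5 and 40.8 RPM. The log2 ratio was 0.68 per kb (counting SE 0.08) and 0.42 by summed RPM, at percentiles 67.5 and 32.7 of all shared regions. CDK4 in shKDM2B lay at percentile 96.7 of its H3K79me3 list by density and 99.3 by the score of the peak caller.

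CDK6, a kinase of the same family as CDK4, lies at chr7:92234235-92465941 on the minus strand and had no peak over a span of 231707 bp. The nearest peak lay 74.2 kb beyond its 3′ end in shCTL H3K79me2 and at 74.3 to 74.6 kb on the same side in the other 3 ChIP lists. The 2 kinases that cyclin D activates thus differed in whether a peak was called, for both marks and in both lines. No level was assigned to CDK6.

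CCNE1, which encodes cyclin E1 at chr19:30302901-30315215 on the plus strand, had the fewest H3K79me2 tags and the lowest H3K79me2 density of the occupied members, although its fold enrichment over the local background of its own library, 7.11 in shCTL and 7.83 in shKDM2B, was the highest of the 6 in each list. Its H3K79me2 peak held 20 tags in 625 bp in shCTL and 34 tags in 1212 bp in shKDM2B, or 1.25 RPM (95% interval 0.763 to 1.93) and 2.59 RPM (95% interval 1.79 to 3.61). Per kb the log2 ratio was 0.10 (counting SE 0.41), and by summed RPM 1.05. These intervals are wide because the counts are low. In the 498 regions of the same pattern, the median was 37 tags in shCTL and 42.5 in shKDM2B, and the median log2 ratio -0.05 per kb and 0.40 by summed RPM. The nearest H3K79me3 peaks lay 95.6 kb upstream in shCTL and 95.8 kb upstream in shKDM2B.

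RB1, at chr13:48877883-49056026 on the plus strand, encodes the protein that restrains E2F factors. Its H3K79me3 peak held 95 tags in 2280 bp in shCTL and 217 tags in 2706 bp in shKDM2B, or 5.57 RPM (95% interval 4.51 to 6.81) and 13.2 RPM (95% interval 11.5 to 15.1). The log2 ratio of 1.00 per kb (counting SE 0.18) and 1.25 by summed RPM was the highest of the members, at percentiles 92.7 and 86.4 of all shared regions. H3K79me2 held 206 tags in 3234 bp and 197 tags in 3375 bp, or 12.9 and 15.0 RPM, with a log2 ratio of 0.16 per kb (counting SE 0.14) and 0.22 by summed RPM. The H3K79me2 difference was within 1.96 counting SE at this scaling, and it was 0.44 per kb, beyond it, when scaled to the tags inside peaks. E2F3, whose product RB1 binds, lies at chr6:20402137-20493945 and had no peak over 91809 bp. Its nearest peaks lay 40.7 to 41.0 kb downstream in shCTL H3K79me2 and in both H3K79me3 lists, and 562 kb upstream in shKDM2B H3K79me2.

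CDKN1B, at chr12:12870302-12875305 on the plus strand, encodes p27. Its H3K79me2 peak held 668 tags in 3952 bp in shCTL and 589 tags in 7691 bp in shKDM2B, or 41.7 RPM (95% interval 38.6 to 45.0) and 44.8 RPM (95% interval 41.3 to 48.6). The knockdown peak ran 2405 bp past the 3′ end of the gene and was 1.95 times as wide. The log2 ratio was -0.86 per kb (counting SE 0.08), at percentile 0.534 of all shared regions, but 0.10 by summed RPM, at percentile 59.3. The score of the peak caller was 739 in shCTL and 62.4 in shKDM2B, close to the calling threshold of 50. The summits nevertheless lay 806 and 825 bp from the start. H3K79me3 was called at similar widths, with 507 tags in 3540 bp in shCTL and 690 tags in 3856 bp in shKDM2B, or 29.7 and 42.1 RPM, and a log2 ratio of 0.38 per kb (counting SE 0.08) and 0.50 by summed RPM. CDKN1A, which encodes p21 at chr6:36644237-36655116, had no peak, and the nearest lay 129 kb upstream in each of the 4 ChIP lists.

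Because summed tags and density can point in opposite directions, the position of each pair of peaks was used to limit the difference. In all 11 pairs of mark and locus the peak of 1 line lay inside that of the other. How often this held over all shared regions was not counted, so it cannot be called particular to these loci. Where the control peak lies inside the knockdown peak, the summed log2 ratio is an upper limit for the ratio over the control peak, apart from counting error and tags at the edges. For H3K79me2 this limit was -0.37 (counting SE 0.14) at MYC and -0.27 (counting SE 0.09) at CDK4, so both were lower in shKDM2B over the control peak by more than 1.96 counting SE at this scaling; scaled to the tags inside peaks, the limits were -0.09 and 0.01. At CCND1, CDKN1B, RB1 and CCNE1 the H3K79me2 limits were 0.30, 0.10, 0.22 and 1.05, which leaves the direction unsettled. Where the knockdown peak lies inside the control peak, the summed ratio is a lower limit over the knockdown peak. For H3K79me3 this limit was 0.42 (counting SE 0.08) at CDK4, above 0 at this scaling and -0.13 when scaled to the tags inside peaks, and it was -0.35 (counting SE 0.15) at MYC, which does not settle the direction. At CCND1, CDKN1B and RB1 the H3K79me3 upper limits were 1.15, 0.50 and 1.25.

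Within each line H3K79me3 lay almost wholly inside H3K79me2 on these genes. At the 5 loci with both, H3K79me2 covered 94.3% to 100% of the H3K79me3 peak in shCTL and 99.9% to 100% in shKDM2B. H3K79me3 covered 70.5% to 100% of the H3K79me2 peak in shCTL and 50.1% to 80.2% in shKDM2B. The summits of the marks lay 31 to 269 bp apart in shCTL and 7 to 437 bp apart in shKDM2B. Since the antibodies differ, levels were set only against the median density of their own list. In shCTL the H3K79me2 and H3K79me3 peaks stood at 2.78 and 2.62 times that median at CDK4, at 2.66 and 2.49 times at CDKN1B and at 2.05 and 1.57 times at CCND1. MYC stood at 1.25 and 0.998 times and RB1 at 1.004 and 0.724 times. In shKDM2B the values were 2.48 and 3.26 at CDK4, 1.60 and 2.51 at CDKN1B, 1.68 and 2.20 at CCND1, 0.914 and 0.853 at MYC, and 1.22 and 1.12 at RB1. Relative to its list H3K79me2 was the higher of the marks at 5 of 5 loci in shCTL, against 85.6% of the regions with both marks in both lines, and at 2 of 5 in shKDM2B, MYC and RB1, against 60%. In shCTL the differences at CDK4 and CDKN1B, and in shKDM2B those at MYC and RB1, were within 1.96 counting SE.

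Between the lines, the log2 ratio of H3K79me3 exceeded that of H3K79me2 at all 5 loci when tags were divided by all filtered tags, as at 98.5% of the 3922 regions with both marks in both lines per kb and 93.8% by summed RPM. Per kb the difference between the 2 ratios was 1.27 at CCND1, 1.23 at CDKN1B, 0.97 at CDK4, 0.84 at RB1 and 0.72 at MYC, against a median of 0.76 (quartiles 0.58 and 0.94). By summed RPM it was 0.84 at CCND1, 0.40 at CDKN1B, 0.69 at CDK4, 1.03 at RB1 and 0.02 at MYC, against a median of 0.72 (quartiles 0.51 and 0.96). CCND1 and CDKN1B lay at percentiles 94.95 and 94.0 per kb but at 65.3 and 16.6 by summed RPM. MYC lay at 44.2 per kb and 6.35 by summed RPM. Scaled to the tags inside peaks, the difference per kb was 0.44 at CCND1, 0.41 at CDKN1B, 0.14 at CDK4, 0.01 at RB1 and -0.11 at MYC, against a median of -0.07, and at CDK4, RB1 and MYC it was within 1.96 counting SE.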

How the data were processed

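ChIP-seq peak lists of 6 libraries were used, 1 library per line and antibody. The submitters' processing notes name Bowtie2 as a tool, with no version, and hg19 (GRCh37) as the build. The deposited peaks came from MACS 1.4.2, run on each library without a control file, per the file headers, at a p cutoff of 1e-05, with at most 1 tag per position and a background taken over 10000 bp of the same library. The deposited lists give a tag count per peak, a fold enrichment (a ratio set by the authors' caller within a library) and a score, headed as a negative log10 p but 10 times that quantity. Fold and score only describe peaks within a list.

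Chromosomes 1 to 22, X and Y were kept. Gene spans were fixed hg19 intervals; no hg19 annotation was used, so the wider list of G1/S genes was not analysed. Strands came from the RefSeq promoter table, and for MYC and CCND1 from general knowledge. Peaks of both lines sharing 1 bp were merged into regions; tags and lengths were summed, divided by filtered tags, and compared as log2 ratios with a counting SE. The merging and the ratios were tested on control peaks with redrawn tag counts, some doubled and some peaks removed. Peak edges were left unchanged there, so peaks of unlike width or position were not covered. The work was done in Python 3.11.15 with scipy 1.17.1 and pandas 2.3.3. All 9 members are named. The members and lists were chosen with earlier results of these data known, and the limits from nested peaks were added after the values were seen. Alternatives were other rules for assigning, filtering, joining and scaling peaks.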

Additional observations from a re-analysis of the deposited data

Results flagged for a closer look

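At 3 of the 5 loci with both marks, the marks differed between the lines in opposite directions, each beyond 1.96 counting SE. H3K79me2 density was lower and H3K79me3 density higher in shKDM2B. Taken singly, 30.6% of all shared H3K79me2 regions were lower and 80.8% of all shared H3K79me3 regions were higher beyond this limit. The share of regions with both differences at once was not counted, so the pattern cannot be called particular to these loci. The difference between the log2 ratios per kb was 1.27 at CCND1, 0.97 at CDK4 and 1.23 at CDKN1B, against a median of 0.76 over all regions with both marks in both lines. These differences were not tested, because each group has 1 library. At CDK4 the opposite directions also held by summed RPM (-0.27 and 0.42), whereas at CCND1 (0.30 and 1.15) and CDKN1B (0.10 and 0.50) both marks were then higher in shKDM2B. Scaled to the tags inside peaks, the H3K79me2 and H3K79me3 ratios per kb were -0.13 and 0.31 at CCND1, -0.01 and 0.13 at CDK4 and -0.58 and -0.17 at CDKN1B.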

How the results depend on the processing

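No paired analysis was possible because each group has 1 library and no test was made. Of the alternatives, extending the gene spans by 2 kb, requiring 50% of a peak inside the span and leaving out peaks on input peaks moved no ratio beyond counting error and no count beyond 1.5 times. Nor did joining peaks within 1 kb, which was not run for the number of loci with a peak. The span, 50% and input checks had little room to change the members, so their outcome is no support. Every member peak lay at least 65% inside its span, and the input peak nearest to a member was 100.5 kb away. The ChIP peak nearest to an uncalled locus was 40.7 kb away. Summing RPM in place of RPM per kb turned the H3K79me2 median log2 ratio from -0.35 to 0.16, CCND1 H3K79me2 from -0.41 to 0.30 and CDKN1B H3K79me2 from -0.86 to 0.10, and changed the H3K79me2 loci past 1.5-fold from 0 to 1 higher and from 1 to 0 lower. Using the tags inside peaks as the library size moved the median of all shared regions from 0.55 to -0.01 for H3K79me3 and from -0.15 to 0.12 for H3K79me2. It moved the median at the members to 0.13 for H3K79me3 and -0.071 for H3K79me2, and left 0 H3K79me3 loci higher and 0 H3K79me2 loci lower by 1.5-fold. It turned CDKN1B H3K79me3 from 0.38 to -0.17 and MYC H3K79me3 from 0.14 to -0.41. A 2-fold limit left 1 H3K79me3 locus higher (RB1, at percentile 92.7 of all shared regions) and 0 H3K79me2 loci lower. With the higher-scoring 50% of each list, 1 H3K79me2 region was in 1 line only and 0 were 1.5-fold lower. With a fold enrichment of at least 5.67, peaks were left at 3 loci in shKDM2B H3K79me2 and at 3 in shKDM2B H3K79me3, 1 H3K79me2 and 2 H3K79me3 regions were in 1 line only, and 0 H3K79me2 loci were 1.5-fold lower. With equally many top-scoring peaks per list, 1 H3K79me2 region was in 1 line only. Shares of all regions were not counted at the 2-fold limit, with these filters or when scaled to the tags inside peaks. Low counts limit CCNE1 most, with 20 and 34 tags.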
